A study of Rattus norvegicus with 49 samples.

Results

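The comparison set 18 arrays from Fisher 344 rats of 9 and 12 months against 18 arrays from rats of 3 and 6 months, to measure which transcripts of hippocampal area CA1 had changed by mid-life, well before old age. It used 36 of the 49 arrays of the series, chosen by their labelled age alone: 9 animals each of 3, 6, 9 and 12 months, pooled in pairs. The 13 arrays of 23-month animals entered no fit. Each animal gave 1 Affymetrix RAE 230A array of RNA from dissected area CA1 of 1 hippocampus, the left. The labels name no treatment or genotype, and age is the only difference between the 4 groups that they give. Differences in batch were not tested. All had gone through several days of water maze training that ended within about a day of the tissue being taken, so no group shows CA1 of a rat without recent training. The sex of the animals is not given in the labels, and 1 inbred strain was used. A probe set, the group of short probes that reads 1 transcript, was tested where it had a single gene symbol and a signal of at least 100 on 5 or more of the 36 arrays. That left 9414 probe sets for 8006 genes, out of 12783 with a single symbol.

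CA1 holds densely packed pyramidal neurons, through which the hippocampus sends most of its output, and around them astrocytes, oligodendrocytes and microglia. Microglia are the resident macrophages of the brain; they carry Fc receptors and phagocytic machinery and respond to complement, a cascade of plasma proteins also made locally, in which C3 is the central component. In the rodent hippocampus, transcripts of microglia, complement and lysosomes are known to rise toward old age, while activity-regulated neuronal transcripts follow recent experience and neuronal firing. The tissue is bulk, so fewer or more cells of a type and less or more RNA per cell cannot be told apart.

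In the pooled comparison 14 of 9414 probe sets (0.149%) passed, each for a different gene: 12 were higher at 9 and 12 months (0.127%) and 2 were lower (0.0212%). The test was limma's moderated test in a fit with a mean per age, with Benjamini-Hochberg adjustment over all 9414 probe sets and a threshold of 0.05. The genes that rose were C3, the immune receptors and surface proteins Fcer1g, Fcgr2b, Cd53 and Cd83, the macrophage protein Mpeg1, the lysosomal proteins Npc2 and Rnaset2, and the enzymes Mgst1, Nat8f3, Qdpr and Aadat. The genes that fell were Homer1, read by 1 of its 5 tested probe sets, and Rpa3. Folds were small, from 1.13 for Cd83 to 1.38 for C3, and the median size of the 14 differences was 0.32 on the log2 scale against 0.04 over all probe sets. An unadjusted p under 0.05 was reached by 440 probe sets (4.67%), 233 higher (2.48%) and 207 lower (2.2%), where 470.7 would lie under that threshold if none differed.

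**Figure D1:**
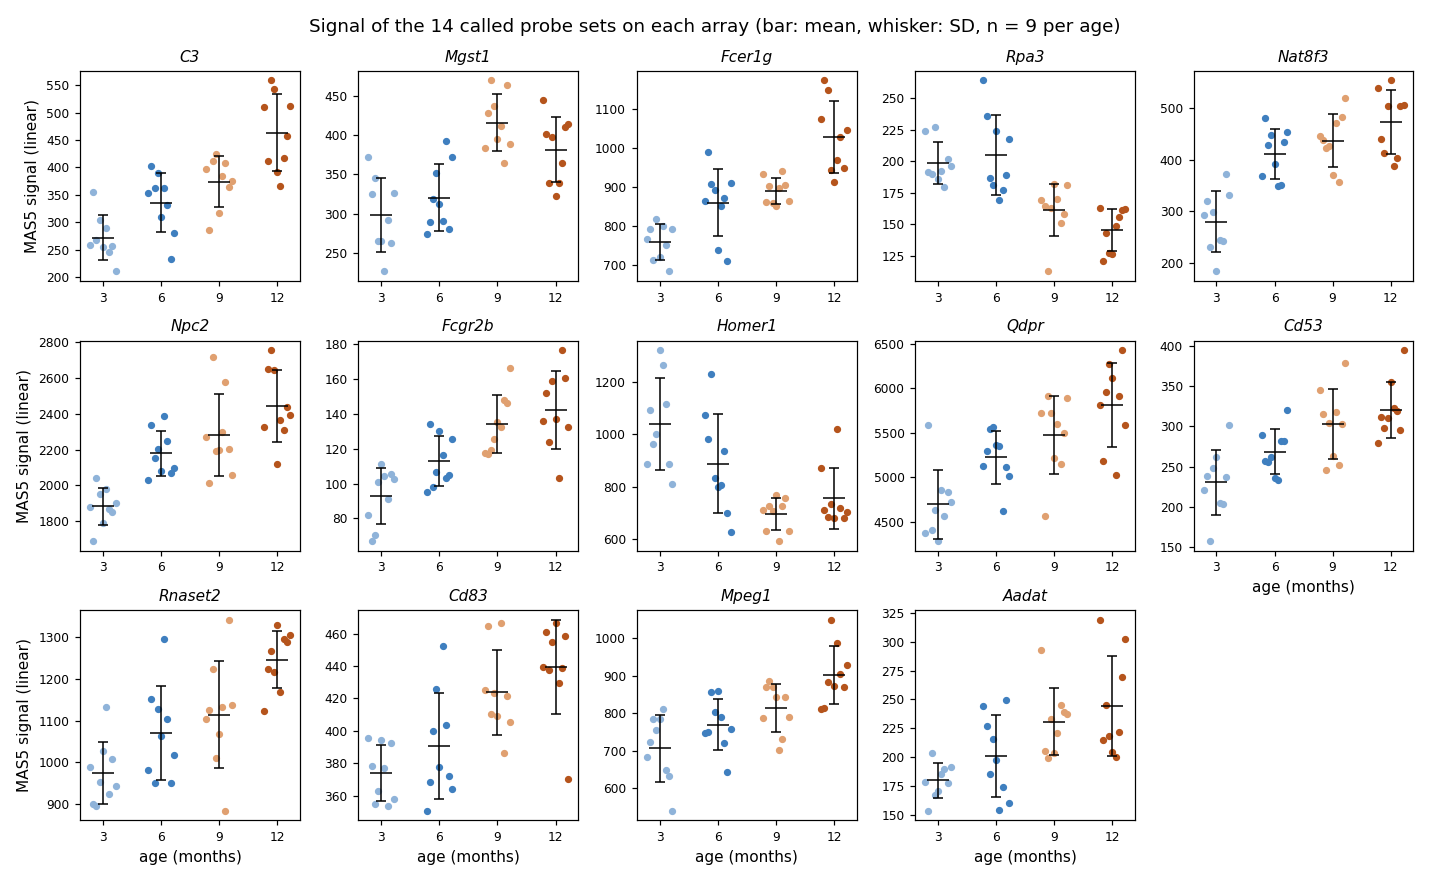
Signal of each of the 14 called probe sets (linear MAS5 signal, its own vertical axis per panel, not starting at 0) on every array, by age in months. Each point is 1 animal, the bar is the mean and the whisker the SD of 9 animals. For C3 the 12-month points all lie above the 3-month points, whereas for Mgst1 the highest mean is at 9 months.

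The pooled groups were alike in mean array quality. The median signal of an array ranged from 208 to 224.9, and a signal of at least 100 was reached by 10186 to 10924 of its probe sets. The log2 ratio of 3′ to 5′ probes of GAPDH, a sign of RNA integrity, differed between the pooled groups by 0.0071 (two-sided permutation p = 0.729) and that of actin by 0.00055 (two-sided permutation p = 0.990). Neither passed after adjustment over 4 quality measures (0.972 and 0.990). These tests compare group means. Over single arrays the log2 ratio ranged from 0.15 to 0.418 for GAPDH and from 0.625 to 1.13 for actin. CA1 markers were present at every age. The summed signal of 16 probe sets for CA1 pyramidal cell identity had medians of 34220.4, 33244.9, 32552.8 and 33283 at 3, 6, 9 and 12 months. None of the 16 was called. The sum of 8 dentate granule cell probe sets had medians of 8525.7, 7761.6, 9269.1 and 8329.4 at the same ages. Prox1, a marker of the neighbouring dentate gyrus, was also present, with a signal from 274.1 to 1073.2 over the 36 arrays. Its pooled difference was 0.09 ± 0.16 (SE, limma adjusted p = 0.998). On 4 arrays, all of 3 months (replicates 4, 6, 7 and 8), transthyretin (Ttr), made in the choroid plexus, had a signal of 8932, 5108, 3908 and 12003, and elsewhere it did not exceed 656.8. Results are therefore also given without these 4 arrays where that changes a call.

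Promoter sequences are shown for genes of different roles that rose together. RefSeq's table for assembly GRCr8 held a window of 300 bases, from 250 before to 50 after the annotated start, for 11 of the 14 genes. The windows were searched on both strands for 5 short motifs. TTGCNNAA, letters found in sites of the C/EBP family of inflammation-related factors, was in 4 of the 11 (C3, Nat8f3, Npc2 and Qdpr), against 10.6% of 33469 promoters and 7.73% of those of tested genes. GAGGAA, the core of sites for PU.1, the factor that defines macrophages and microglia, was in 3 of the 11 (Cd53, Mgst1 and Qdpr), against 27.6% and 25.8%. TGACNNNGC, as in antioxidant response elements, was in 1 (Npc2) against 12.1% and 14.7%; TGACG, the core of the cyclic AMP response element, was in 1 (Cd53) against 21.2% and 32.1%; CCAAT was in 5 (Mpeg1, Cd53, Npc2, Qdpr and Aadat) against 37.5% and 37.3%. TGACG and TGACNNNGC share their first 4 letters. A match is a description of these letters, not a binding site. The 250 bases upstream of the start are printed for 4 genes, 5′ to 3′ in the direction of transcription, with TTGCNNAA in capitals for the first 3 and GAGGAA, here on the other strand, in capitals for Cd53. They lie on the minus strand at chr9:2201340-2201589 (C3), chr4:119803477-119803726 (Nat8f3), chr6:110149246-110149495 (Npc2) and chr2:197087897-197088146 (Cd53). The first capital lies 104, 151, 181 and 44 bases before the start.
C3: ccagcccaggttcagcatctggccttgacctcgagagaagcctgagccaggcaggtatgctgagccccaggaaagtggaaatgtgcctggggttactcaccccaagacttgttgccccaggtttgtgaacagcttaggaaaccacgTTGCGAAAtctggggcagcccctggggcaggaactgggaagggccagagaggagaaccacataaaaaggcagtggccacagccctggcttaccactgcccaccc
Nat8f3: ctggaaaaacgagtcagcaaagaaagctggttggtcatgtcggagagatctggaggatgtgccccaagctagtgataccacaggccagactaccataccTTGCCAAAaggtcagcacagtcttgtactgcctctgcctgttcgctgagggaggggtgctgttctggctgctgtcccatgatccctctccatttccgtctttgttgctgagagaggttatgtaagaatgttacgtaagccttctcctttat
Npc2: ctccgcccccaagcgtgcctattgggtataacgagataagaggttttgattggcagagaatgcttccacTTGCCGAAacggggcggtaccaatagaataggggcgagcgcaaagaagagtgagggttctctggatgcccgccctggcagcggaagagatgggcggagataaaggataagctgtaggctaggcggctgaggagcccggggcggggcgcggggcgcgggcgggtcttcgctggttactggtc
Cd53: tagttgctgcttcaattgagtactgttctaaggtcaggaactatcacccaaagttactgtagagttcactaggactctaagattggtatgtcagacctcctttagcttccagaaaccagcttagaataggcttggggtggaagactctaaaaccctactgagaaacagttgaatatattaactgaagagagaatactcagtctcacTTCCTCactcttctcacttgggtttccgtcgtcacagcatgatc

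C3 had the smallest p of all probe sets. Its signal (lowest, median and highest of 9 animals) was 210.8, 257.8 and 356.1 at 3 months, 232.7, 353.5 and 402.7 at 6 months, 286.9, 385.2 and 424 at 9 months, and 366.9, 456.6 and 558.8 at 12 months. All 9 animals of 12 months were above every animal of 3 months, 10 of the 18 older animals were above every younger one, and the pooled groups overlapped. The mean was 304 ± 57.2 (SD, n = 18) in the younger and 419 ± 73.4 (SD, n = 18) in the older group, a rise of 0.47 ± 0.07 (SE) on the log2 scale (limma adjusted p = 5.49e-04). The estimates were alike in both pairs of ages 6 months apart: 0.47 from 3 to 9 months and 0.47 from 6 to 12 months.

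Fcer1g encodes the signalling chain shared by several Fc receptors. Its signal was 683.1, 766.3 and 818.7 at 3 months, 710.2, 872.7 and 988.6 at 6 months, 850.2, 896.2 and 941.2 at 9 months, and 911.4, 1028.4 and 1174.1 at 12 months. No animal of 9 or 12 months was as low as the highest of 3 months, while the 6-month animals spread across both. The pooled rise was 0.25 ± 0.04 (limma adjusted p = 6.38e-04).

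Fcgr2b encodes an Fc receptor for IgG of the inhibitory type, and its probe set lies near the filter on signal. It read 67.1, 101 and 111.1 at 3 months, 95, 106.8 and 134 at 6 months, 116.8, 132.2 and 166.1 at 9 months, and 103.1, 136.8 and 176.4 at 12 months. All 9-month animals, and 8 of 9 at 12 months, were above every 3-month animal. The pooled rise was 0.44 ± 0.08 (limma adjusted p = 0.00262). Fc receptor genes resemble each other in sequence, and whether this probe set reads Fcgr2b alone was not tested.

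Cd53, a tetraspanin of leukocytes, had a median signal of 237.1, 261.5, 304.1 and 311.5 at 3, 6, 9 and 12 months, within 157.6 to 319.9 in the younger and 246.1 to 394.6 in the older group. Its pooled rise was 0.33 ± 0.07 (limma adjusted p = 0.0103). Cd83, an immunoglobulin-family surface protein known from antigen-presenting cells, had medians of 377.1, 377.5, 421.8 and 439.3 and rose by 0.17 ± 0.04 (limma adjusted p = 0.0283). Mpeg1, a pore-forming protein of macrophages, had medians of 722.6, 758.2, 843.1 and 884.5 and rose by 0.22 ± 0.05 (limma adjusted p = 0.0283); its other probe set had a difference of 0.40 ± 0.10 that did not pass (adjusted p = 0.165). For all 3 genes the pooled groups overlapped: 5, 6 and 10 of the 18 older animals were above every younger animal for Cd53, Cd83 and Mpeg1.

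Npc2 encodes a soluble protein that carries cholesterol inside lysosomes. Its signal was 1688.8, 1880.3 and 2040.8 at 3 months, 2031.3, 2154 and 2386.4 at 6 months, 2012.4, 2203.4 and 2718.8 at 9 months, and 2120.3, 2392.2 and 2757.5 at 12 months. The 3-month animals stood lowest: 8 of 9 animals of 6 months and all of 12 months were above each of them. The pooled rise was 0.22 ± 0.04 (limma adjusted p = 0.00108). Rnaset2, a ribonuclease of the lysosome, had medians of 952.2, 1062.5, 1126.1 and 1265.2 over the 4 ages and rose by 0.20 ± 0.04 (limma adjusted p = 0.0264), although the lowest animal of the older group, at 884.6, was below every younger animal.

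The remaining 4 rises were in enzymes. Nat8f3, a member of the N-acetyltransferase 8 family, had the largest change of the 14 between 3 and 6 months. Its signal was 184, 293.7 and 373.4 at 3 months, 348.5, 428.1 and 480.9 at 6 months, 357.1, 438.5 and 519.3 at 9 months, and 387.3, 503.8 and 554.3 at 12 months. The 6-month animals thus sat with the older animals rather than with those of 3 months, and 6 of 9 were above all of the latter. The pooled rise was 0.43 ± 0.07 (limma adjusted p = 6.58e-04), and whether the probe set reads other members of the family was not tested.

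Mgst1 is a membrane-bound glutathione transferase and peroxidase. Its signal was 226.5, 291.2 and 371.7 at 3 months, 273.6, 311.6 and 392.3 at 6 months, 364.3, 411 and 469.7 at 9 months, and 321.9, 397.8 and 444.9 at 12 months. Both younger ages were low and both older ages high, and 11 of 18 older animals were above every younger one. The pooled rise was 0.38 ± 0.06 (limma adjusted p = 6.38e-04). Aadat, which converts kynurenine to kynurenic acid, had medians of 178.5, 197.2, 232.7 and 221.4 and rose by 0.32 ± 0.07 (limma adjusted p = 0.0283). Qdpr, which regenerates the cofactor tetrahydrobiopterin and is rich in oligodendrocytes, had medians of 4627.6, 5298.2, 5596 and 5911.6 and rose by 0.19 ± 0.04 (limma adjusted p = 0.00899).

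Homer1 encodes scaffold proteins that link metabotropic glutamate receptors to calcium release, and a short form of its transcript is induced by neuronal activity. The called probe set read 811.1, 1002.8 and 1321 at 3 months, 626.3, 831.3 and 1228.2 at 6 months, 593, 709.8 and 767.3 at 9 months, and 679.7, 709.6 and 1020.7 at 12 months. Every 9-month animal was below every 3-month animal, whereas 4 of 9 animals of 6 months and 7 of 9 of 12 months were. The pooled difference was -0.39 ± 0.07 (limma adjusted p = 0.00262). The 4 other tested probe sets of Homer1 had differences of -0.08, -0.10, -0.17 and -0.29, none of which passed (the smallest unadjusted p was 0.00825, adjusted p = 0.760). Which Homer1 transcript each probe set reads is not given in the sources used here.

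Rpa3 encodes the smallest subunit of replication protein A, which binds single-stranded DNA in replication and repair. Its signal was 179.2, 192.2 and 227.6 at 3 months, 169.3, 189.4 and 264.3 at 6 months, 112.7, 164.8 and 182.1 at 9 months, and 121.1, 149 and 162.7 at 12 months. It had the least overlap of the 14: 15 of 18 older animals were below every younger animal. The pooled difference was -0.40 ± 0.06 (limma adjusted p = 6.38e-04).

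No probe set of the 9414 had pooled groups that did not overlap, and 8 (0.085%) had 12-month and 3-month animals that did not overlap. Of these 8, 5 were among the 14 called: C3, Fcer1g, Rpa3, Nat8f3 and Npc2. The others were Ecrg4, Pik3ip1 and Vmp1, which did not pass. The same arrays entered the choice of the 14, so nothing is read from that count. Only 1 probe set had a pooled difference of at least 2-fold, that of Ttr (-1.15 ± 0.45, adjusted p = 0.945), which was -0.03 without the 4 arrays of 3 months described above. The values just inside the threshold were those of Aadat, Mpeg1 and Cd83 (adjusted p = 0.0283). Those just outside it were Sema3c, an axon guidance protein, at -0.36 (adjusted p = 0.0533), Tmem176a at 0.18 (0.0722), the immunoproteasome subunit Psmb9 at 0.36 (0.0757), Ptpn11 at 0.14 (0.0975), the type IV collagen Col4a5 at -0.28 (0.102) and Tbc1d14 at -0.15 (0.102).

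Pooling treats 3 with 6 months and 9 with 12 months as alike, and the same fit shows how far they were. The drift within the pairs, the mean of the change from 3 to 6 and the change from 9 to 12 months, uses none of the difference between the pooled groups. With equal groups its estimate is uncorrelated with the pooled estimate, although both share the residual variance. A change linear in months gives a drift of 0.5 of the pooled difference, and a step between 6 and 9 months gives a drift of 0. Over all probe sets no drift passed (0%) after adjustment, and 580 (6.16%) had an unadjusted p under 0.05. Of the 14 called probe sets, 9 had a drift with an unadjusted p under 0.05, all 9 in the direction of the pooled difference. The drift had the sign of the pooled difference in 13 of the 14, against 57.9% of all probe sets. The 4 probe sets of smallest drift p among all 9414 were Nat8f3, Fcer1g, C3 and Npc2, all of them called in the pooled comparison.

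The 14 divided by this measure. Drifts were 0.34 ± 0.07 for Nat8f3 (limma unadjusted p = 1.8e-05), 0.19 ± 0.04 for Fcer1g (2.21e-05), 0.30 ± 0.07 for C3 (1.02e-04), 0.16 ± 0.04 for Npc2 (1.38e-04), 0.15 ± 0.04 for Rnaset2 (0.00135), 0.12 ± 0.04 for Qdpr (0.00203) and 0.14 ± 0.05 for Mpeg1 (0.00598). These 7, a complement protein, 2 immune and 2 lysosomal proteins and 2 enzymes, had drifts of at least 0.5 of their pooled difference. Cd53 and Fcgr2b had drifts of 0.16 ± 0.07 (p = 0.018) and 0.18 ± 0.08 (p = 0.0251). The drift was close to 0 for Mgst1 (-0.0086 ± 0.06, p = 0.886), Rpa3 (-0.06 ± 0.06, p = 0.397) and Homer1 (-0.06 ± 0.07, p = 0.392), whose largest step lay between 6 and 9 months: 0.38, -0.34 and -0.33 on the log2 scale. Their changes within the pairs had opposite signs. From 3 to 6 and from 9 to 12 months they were 0.11 and -0.13 for Mgst1 and 0.04 and -0.15 for Rpa3. For Homer1 they were -0.24 (limma unadjusted p = 0.0231) and 0.11, so its drift near 0 does not mean level pairs. At the step from 6 to 9 months the median of the 8 dentate granule cell probe sets was 0.21 and that of the 16 of CA1 identity -0.07, against -0.0045 over all probe sets; over the pooled difference 8 of 8 and 3 of 16 were above 0. The part of this shift in tissue markers in the 3 genes was not tested. Cd83 and Aadat, with drifts of 0.06 and 0.11 (p = 0.147 and 0.129), lay between. After adjustment over all probe sets the smallest drift p of the 14 was 0.104, for Nat8f3 and Fcer1g, so the contrast between these genes is one of values and not of passed tests.

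**Figure D2:**
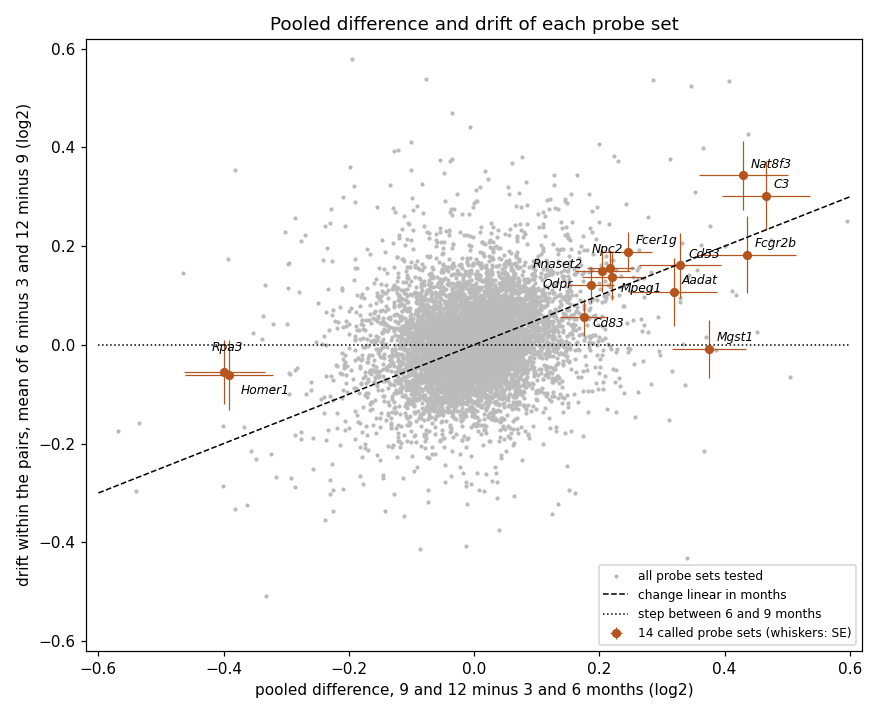
Drift within the pairs of ages against the pooled difference, both log2, for all probe sets tested (grey; 4 lie outside the axes) and the 14 called (orange, whiskers SE). The dashed line is where a change linear in months would lie and the dotted line where a step between 6 and 9 months would lie; Nat8f3, C3 and Fcer1g lie above the dashed line, and Mgst1, Rpa3 and Homer1 lie near the dotted one.

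Single steps between neighbouring ages passed almost nowhere. From 3 to 6 months 1 probe set passed (0.0106%), Nat8f3, with a rise of 0.58 ± 0.10 (limma adjusted p = 0.00912). From 6 to 9 months and from 9 to 12 months 0 probe sets passed (0%), with 226 (2.4%) and 405 (4.3%) at an unadjusted p under 0.05. Of the 14, 9 had an unadjusted p under 0.05 from 3 to 6 months, where 283 of all probe sets (3.01%) did, and 4 had one from 9 to 12 months (C3, Fcer1g, Rnaset2 and Mpeg1). From 6 to 9 months 6 did, but the pooled contrast gives that step full weight and the other steps a smaller one, so nothing is read from that count. The largest of the 3 steps was that from 3 to 6 months for 5 genes, from 6 to 9 months for 5 and from 9 to 12 months for 4. The choice of the 14 weighted these steps unequally, so nothing is read from these counts either.

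The pooled difference is also the mean of 2 comparisons that share no animal, 9 against 3 and 12 against 6 months. In the first 6 probe sets passed (0.0637%), with 303 (3.22%) at an unadjusted p under 0.05: Nat8f3, Mgst1, Homer1, Npc2, Fcgr2b and C3. Without the 4 arrays of high Ttr, all of 3 months, 1 passed there. In the second, with 277 (2.94%) at an unadjusted p under 0.05, 1 passed (0.0106%), Rpa3, with a difference of -0.49 (limma adjusted p = 0.0352), and with quantile normalization, with median centring or without those 4 arrays 0 passed. All 14 had the same sign in both, which their choice by the mean makes likely and from which nothing is read. The test of the difference between the 2 comparisons passed for no probe set (0%), with 174 (1.85%) at an unadjusted p under 0.05. The values that differed most among the 14 were those of Nat8f3, 0.66 against 0.20 (unadjusted p of the difference 0.00200), and Homer1, -0.57 against -0.22 (unadjusted p of the difference 0.0177).

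Which age carried the comparison was measured by leaving out each in turn, which leaves 27 arrays. Without the 3-month animals, so that 9 and 12 months were set against 6 months alone, 0 probe sets passed and 224 (2.38%) had an unadjusted p under 0.05. The 14 kept their sign there, and 13 kept an unadjusted p under 0.05. These arrays also entered the choice of the 14, so nothing is read from either count. The values were largest for Rpa3 at -0.42, Mgst1 at 0.32 and C3 at 0.31, and Nat8f3 had 0.14 against 0.43 with all arrays. Without the 6-month animals 26 probe sets passed, the 14 among them, and C3 stood at 0.62, Nat8f3 at 0.72 and Fcer1g at 0.33. Without the 9-month animals 13 passed, 10 of them among the 14, the others of the 14 being Mgst1, Homer1, Cd83 and Aadat (adjusted p from 0.159 to 0.325). Without the 12-month animals 1 passed, Mgst1, at 0.44 (limma adjusted p = 0.0146), and Homer1 had -0.45 (adjusted p = 0.0717), while C3 had 0.31 and Fcer1g 0.14. Each count rests on fewer animals than the comparison of all 36. With single arrays left out in turn, 10 of the 14 passed all 36 times. The other 4 were close to the threshold: Rnaset2 passed 31 times, Cd83 27, Mpeg1 23 and Aadat 23, with a largest adjusted p of 0.0542, 0.0576, 0.0631 and 0.0672. In a plain fit of 18 against 18 animals, with no mean per age, 12 of the 14 passed, and Rnaset2 (adjusted p = 0.0843) and Mpeg1 (0.0731) did not.

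**Figure D3:**
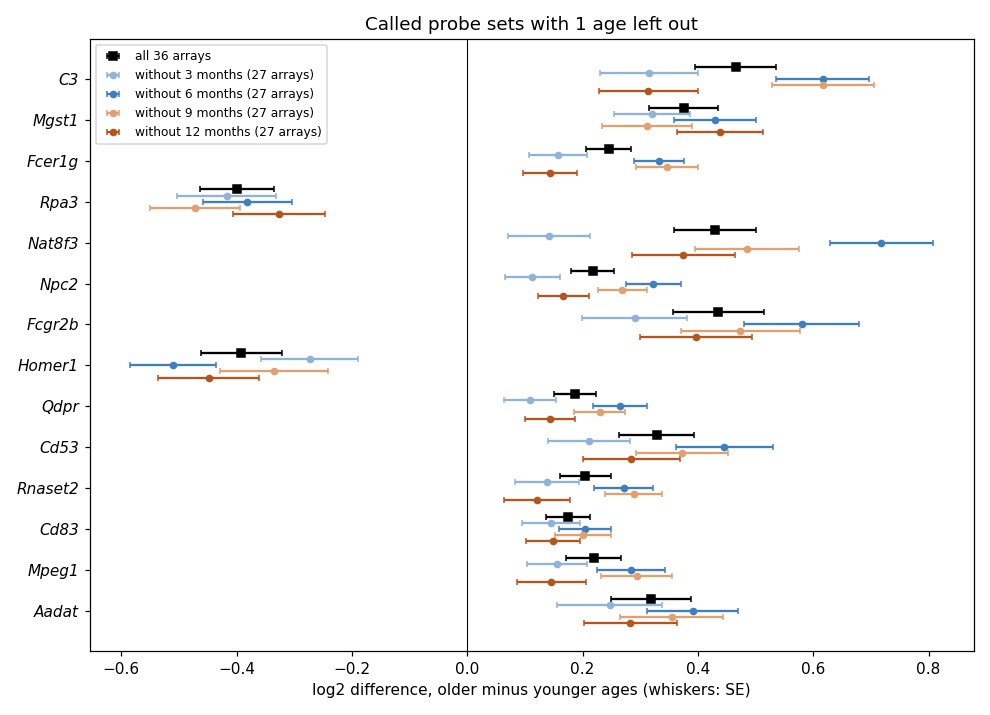
Log2 difference of older minus younger ages for each of the 14 called probe sets, with all 36 arrays (black squares) and with the 9 arrays of 1 age left out (circles, 27 arrays); whiskers are SE. All points of a gene lie on the same side of 0, though every fit shares arrays with the choice of the 14. The point without 3 months is the lowest for Nat8f3, Npc2, Fcgr2b, Qdpr, Cd53, Cd83 and Aadat, and the nearest to 0 for Homer1.

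The microglial markers were the list with the most called members. Of its 23 tested probe sets, 4 rose (Fcer1g, Fcgr2b, Cd53 and Cd83) and none fell, where 0.127% of all probe sets rose. The called macrophage gene Mpeg1 was not in this list. The median pooled difference of the list was 0.08, against -0.0018 over all probe sets, and its median drift was 0.10 against 0.0034. Over all probe sets 2.48% were higher and 2.2% lower at an unadjusted p under 0.05. Of this list 8 were higher and 0 lower. The other 4, singled out after their values were seen, did not pass after adjustment: Laptm5, a lysosomal membrane protein of blood cells, at 0.19, the purine receptor P2ry12 of resting microglia at 0.15, the actin-bundling protein Lcp1 at 0.18 and Tyrobp, a signalling adaptor, at 0.19 (adjusted p from 0.392 to 0.907). The summed signal of the list had a lowest, median and highest value of 7172.3, 7604.4 and 8019.1 at 3 months, 7077.1, 8073 and 8549.2 at 6 months, 7649.8, 8128.8 and 8679 at 9 months, and 8058.3, 8730.8 and 9051.6 at 12 months. All 12-month animals were thus above all 3-month animals in this sum. The sum includes the 4 called probe sets, chosen with these same arrays, so nothing is read from that separation. A sum without them was not computed. The medians of 6 and 9 months lay between, while their animals overlapped with both. Without the 3-month animals 0 members passed and the median was 0.05, and without the 4 arrays of high Ttr 2 passed and it was 0.09.

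**Figure D4:**
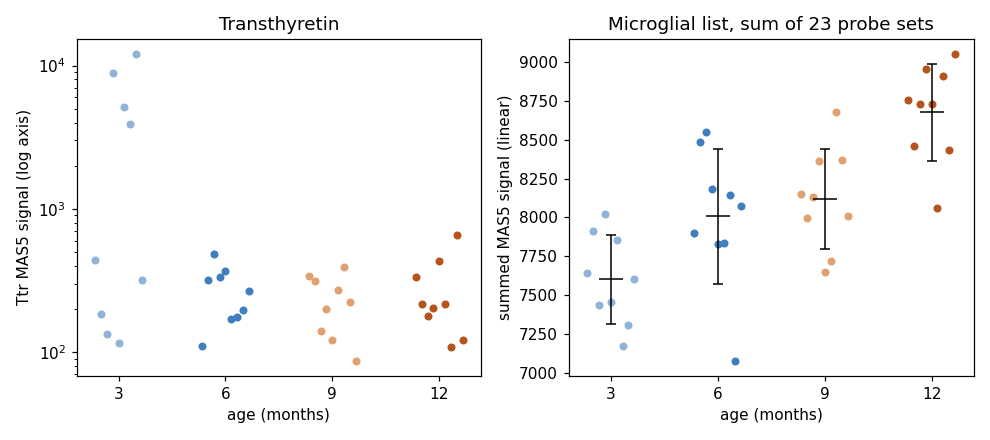
Left, signal of transthyretin (Ttr, log axis) and right, summed signal of the 23 microglial probe sets (linear axis, not starting at 0), for each animal by age in months; bars and whiskers on the right are mean and SD of 9 animals. Ttr is at 3908 or more on 4 arrays of 3 months and at 656.8 or less on all others. The microglial sum, which includes the called probe sets of the list, is highest at 12 months.

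Complement, lysosomal and presentation lists had medians above 0 with all 36 arrays, and few calls. Of 11 complement probe sets C3 alone rose, and the list's median was 0.05; C1qb at 0.17 and C1qa at 0.12, chains of the C1q complex that starts the classical pathway, had adjusted p-values of 0.344 and 0.597 and did not pass. Both also had drifts, of 0.19 and 0.14 (unadjusted p = 5.44e-04 and 0.00123). They were singled out after their values were seen. Of the 44 probe sets of the lysosomal list Npc2 alone rose, with 7 higher and 1 lower at an unadjusted p under 0.05. The list's median was 0.05. Rnaset2, the other called gene of the lysosome, was not in that list. Over all probe sets 2.48% were higher and 2.2% lower at that threshold. The median of 7 probe sets of MHC class II presentation was 0.09 with a drift of 0.14, and none passed. That median was -0.01 without the 12-month animals and 0.05 without those of 3 months, and the median step from 6 to 9 months was -0.09, so its direction turned with 1 age left out. Ctss, a lysosomal protease of antigen-presenting cells, had 0.14 ± 0.06 (adjusted p = 0.945). Among 20 MHC class I, 15 interferon response and 34 cytokine probe sets 0 passed, and the interferon median of 0.04 was -0.00058 without the 3-month animals; Psmb9 (0.36) and S100a6, a calcium-binding protein, at 0.36 ± 0.10 (adjusted p = 0.251) had the smallest p. These lists share members, so their counts are not separate.

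Markers of the other glia held 1 call. For the counts below, 2.48% of all probe sets were higher and 2.2% lower at an unadjusted p under 0.05. Of 41 astrocyte probe sets 0 passed, with 5 higher and 1 lower at an unadjusted p under 0.05. The median was 0.02, and 25 of the 41 were above 0. The list's member of smallest p, the thyroid hormone transporter Slco1c1, went the other way, at -0.10 ± 0.04 (adjusted p = 0.998). Of 32 myelin probe sets Qdpr alone rose, while 2 were higher and 5 lower at an unadjusted p under 0.05 and the median was 0.01. None of the other probe sets of that list passed. Among 9 probe sets of oligodendrocyte progenitors 0 passed, and Vcan had -0.20 ± 0.11 (adjusted p = 0.998).

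Neuronal lists held the fall of Homer1 and no other call. Of 57 activity-regulated probe sets, immediate early genes included, 1 fell, with 1 higher and 4 lower at an unadjusted p under 0.05, and the median was -0.04. At that threshold 2.48% of all probe sets were higher and 2.2% lower. The same Homer1 probe set was the only one called among 64 of glutamate receptors and their scaffold and among 54 of voltage-gated calcium channels and store release, with medians of -0.03 and -0.02. Among 16 probe sets of CA1 identity 0 passed, with a median of -0.05; Pou3f1, a transcription factor, had -0.19 ± 0.06 (adjusted p = 0.464). Among 8 probe sets of dentate granule cells 0 passed, with a median of 0.08 that was -0.02 without the 9-month animals, and a drift of -0.09. Among 43 general neuronal and 49 synaptic vesicle probe sets 0 passed, with medians of 0.0018 and 0.0030; Syn2, a synaptic vesicle protein, had 0.09 ± 0.03 (adjusted p = 0.760). Among 55 potassium and HCN channel probe sets 0 passed, and Kcnip4, a potassium channel partner, had -0.13 ± 0.04 (adjusted p = 0.620).

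Basement membrane and extracellular matrix, meningeal and choroid plexus lists lay on the lower side without a call. Beside their counts, 2.48% of all probe sets were higher and 2.2% lower at an unadjusted p under 0.05. Of 47 matrix probe sets 0 were higher and 7 lower at an unadjusted p under 0.05, with a median of -0.04; Col4a5 had the smallest p, and without the 4 arrays of high Ttr the median was -0.04 with 1 higher and 5 lower. Of 17 meningeal probe sets 4 were lower, with a median of -0.09 that was -0.02 without those 4 arrays; Igf2, a growth factor of the meninges and choroid plexus, had -0.32 ± 0.09 (adjusted p = 0.235). The choroid plexus list of 14 had a median of -0.17, and of -0.0079 without the 4 arrays. Its member of smallest p, Ecrg4, went the other way, at 0.38 ± 0.09 (adjusted p = 0.111). The part of choroid plexus or meningeal tissue in the differences of these lists was not tested further. For the 14 called genes, 10 passed without the 4 arrays, and Cd53, Cd83, Mpeg1 and Aadat did not.

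Oxidative stress defence had 1 call among 50 probe sets, Mgst1, with 5 higher and 2 lower at an unadjusted p under 0.05 and a median of 0.03. Cell division had 1 call among 25, Rpa3, with 0 higher and 2 lower and a median of -0.03. Over all probe sets 2.48% were higher and 2.2% lower at that unadjusted threshold. No probe set passed among 70 of the respiratory chain and ATP synthase, 52 of glycolysis and energy supply, 31 of the proteasome, 49 of ribosomal proteins and translation factors, 50 of heat shock and folding, 29 of sterol synthesis or 23 of the circadian clock, and the medians of these 7 lists lay between -0.0011 and 0.03. In all, 9 of 46 lists had a called member and 37 had none.

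**Figure D5:**
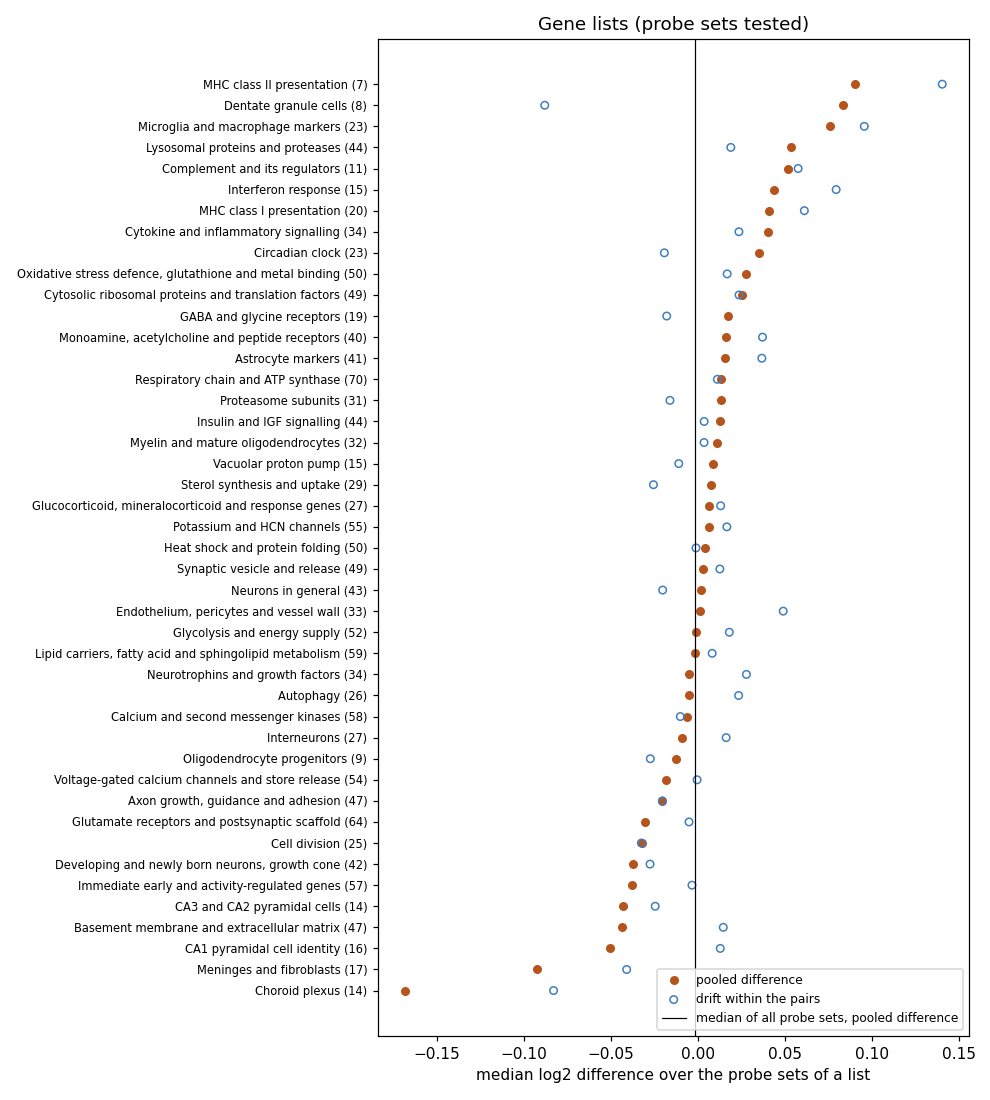
Median log2 difference over the tested probe sets of each gene list with at least 5 of them (number in parentheses): filled points are the pooled difference, open points the drift within the pairs, and the line is the median pooled difference of all 9414 probe sets. The microglial, MHC class II (below 0 without the 12-month animals), lysosomal and complement lists lie to the right and the choroid plexus and meningeal lists to the left; the lists share genes and carry no test.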

How the data were processed

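The authors deposited linear intensities from MAS5, per the submitters' processing notes (its version is not given in the sources used here), and per the design text each array was scaled to 500. The trimmed mean of each of the 36 arrays was 500.1. A filter on presence calls (5 or more) is also stated there; such calls and scan dates were not used here, so batches were not tested. Of 15923 probe sets, 57 are controls, 12783 have 1 gene symbol in the platform annotation, 312 several and 2828 none; 12748 matched RefSeq's table for GRCr8 by Entrez ID. Signals under 16 were set to 16 (0.0345% of values) and log2 was taken, with no further scaling; fold changes are on that scale. No column was left unused (0), and in 630 pairs of arrays the smallest SD of log2 differences was 0.245, so none was a copy of another.

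Tests used R 4.3.3 and limma 3.58.1 (lmFit, eBayes with a variance trend); an unadjusted p is from the same fit. Each array is a different animal, and the number of animals limits the precision. Array quality was compared with 100000 permutations (SciPy 1.17.1). On simulated data shaped as the pooled comparison of 9414 probe sets 10 of 192 calls were false, and of 50 probe sets per size the fit recovered 34 at a log2 change of 0.25, 48 at 0.5, 50 at 1 and 50 at 2; the median ratio of drift to pooled difference was 0.491 for simulated lines and 0.0102 for simulated steps. The simulation held 192 calls against 14 in the data, which loosens the adjusted threshold, and its arrays were independent. Its recovery of small changes can therefore overstate that in the data.

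The comparison, the 46 gene lists and the rule for named genes were chosen with earlier results of these data known. The rule named, of the called probe sets, up to 12 of largest change and a further 6 of smallest p in each direction (here all 14), up to 3 members of each list and of each direction of the drift, and Ttr, Prox1 and Hbb as signs of other tissue or blood; no Hbb probe set was among those tested. The 6 probe sets just outside the threshold are given beside those just inside it. Alternatives covered the floor, the filter, the scaling, 1 probe set a gene, the variance model, array weights, a slope in months, 2 pooled groups with no mean per age, the replicate number as a block, each age and each array left out, and the 4 arrays of high Ttr left out.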

Additional observations from a re-analysis of the deposited data

Results flagged for a closer look

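In 12 of 216 groups of 9 animals (54 named probe sets at 4 ages) a single animal stood apart from the other 8 by more than Dixon's 95% limit; chance flags about 1 in 20 groups, here 10.8. Of the called genes, Rpa3 was at 112.7 in 9 months replicate 3 (others 150.7 to 182.1), Qdpr at 5586.9 in 3 months replicate 2 (4280.1 to 4859.6), Cd83 at 370.1 in 12 months replicate 9 (429.3 to 466.5) and Aadat at 292.7 in 9 months replicate 1 (199.2 to 245.5). Psmb9 was low at 2 ages, at 59.3 in 6 months replicate 1 (87 to 108.8) and at 84.6 in 12 months replicate 4 (113 to 139.1). Apod, a lipid carrier with a pooled difference of 0.17 that did not pass (adjusted p = 0.235), was at 2936.5 in 6 months replicate 5 (2264.9 to 2599.1) and at 2109.2 in 12 months replicate 6 (2688 to 3176.4). In 12 months replicate 1 both the sterol enzyme Cyp51, at 474.5 (285.9 to 367.2), and Pik3ip1, at 515.6 (405.6 to 449), were high. Atp6v1g1, a subunit of the vacuolar proton pump, was at 1109.1 in 9 months replicate 4 (692.7 to 824.6), and the glycolytic enzyme Pfkm at 1140.6 in 6 months replicate 2 (831.7 to 980).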

How the results depend on the processing

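With all 4 ages kept, the pooled comparison had 12 to 18 called probe sets under the alternatives of floor, filter, scaling, variance model, array weights, replicate block, high-Ttr arrays and 2 pooled groups without a mean per age (12, losing Rnaset2 and Mpeg1), and 32 (24 higher, 8 lower) as a slope in months; all 14 were among the 32. Left-out ages gave 0 (0 higher, 0 lower) without 3 months, 26 (19 and 7) without 6 months and 1 (1 and 0) without 12 months. With 1 array left out the count was 11 to 16 (9 to 13 higher, 2 to 4 lower). Calls of lower signal were 4 with array weights and 4 with the replicate block. The drift had 0 calls in the report's fit, 2 with the replicate block and 0 to 2 with 1 array left out (1 without 3 months replicate 8, 2 without 6 months replicate 8). For 9 against 3 months 1 passed without the high-Ttr arrays. For 12 against 6 months 0 passed with quantile normalization, with median centring and without the high-Ttr arrays, and 2 with the replicate block. The cause of these changes was not tested, beyond the smaller number of animals.

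The replicate numbers do not pair animals by the labels. With the replicate number as a block 17 probe sets passed in the pooled comparison, the 14 among them. An unadjusted p under 0.05 was then reached by 562, against 440 in the report's fit. Deviations of same-numbered arrays from their age means had a median correlation of 0.105 over 54 pairs (-0.118 to 0.302; -0.0171 for other numbers), and 18 of 36 arrays correlated best with an array of their own number. An array had far fewer partners of its own number than of other numbers, so 18 of 36 is more than unrelated numbers would give. Same-numbered arrays of different ages were thus more alike than others. The report's fit has no term for the number, so its p-values treat same-numbered arrays as independent. What the number stands for is not given in the labels.

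No called probe set changed sign under any alternative in which it was tested. With 1 probe set a gene 14 passed, 13 of them called in the report's fit. The called Homer1 probe set was not tested there, as another probe set of the gene had the higher mean signal. Differences that turned sign were all far from the threshold: Tekt1 (-0.09) as a slope in months (0.0394), without the high-Ttr arrays (0.00776), without 6 months (0.0611) and without 9 months (0.0375); Cebpz (-0.10), Rbm17 (-0.08) and Spry2 (-0.15), named for their drift, without 12 months (0.0217, 0.0567 and 0.00784); and Prox1 (0.09) with array weights (-0.00611) and without 9 months (-0.0526).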

Other observations

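In the downward direction the smallest drift p-values belonged to probe sets that the pooled comparison did not call. Cebpz, a factor of ribosome assembly, had a drift of -0.18 (unadjusted p = 1.49e-04), Rbm17, a splicing factor, -0.18 (3.38e-04), and Spry2, an inhibitor of growth factor signalling, -0.27 (3.42e-04), with pooled differences of -0.10, -0.08 and -0.15. Sema3c, a secreted guidance protein just outside the pooled threshold, came next with a drift of -0.32 (unadjusted p = 3.45e-04) beside its pooled difference of -0.36. None passed after adjustment over all probe sets. The lipid carrier Apod (0.17), the regulator of insulin signalling Pik3ip1 (0.15) and the autophagy gene Vmp1 (-0.20) had the smallest p of their lists in the pooled comparison (adjusted p = 0.235, 0.235 and 0.180), and none passed.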
